A study of Mus musculus with 81 samples.

Results

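The cytosolic ribosomal protein genes of the mouse were followed in RNA-seq libraries of CA1 pyramidal neurons (PNs), CA3 PNs and dentate gyrus granule cells (DGCs). Members were the protein-coding genes whose symbol begins with Rpl or Rps and a number, together with Rpsa, Rplp0, Rplp1 and Rplp2. The Rps6k kinase genes and symbols ending in -ps were left out, and mitochondrial ribosomal protein genes carry other symbols. The rule found 90 genes among 57010 gene identifiers, of which 21664 were protein-coding. By symbol, 54 members belong to the large subunit and 36 to the small subunit. Of the 90, 77 are the standard ribosomal proteins. The other 13 are related genes (Rpl10l, Rpl22l1, Rpl27rt, Rpl35rt, Rpl36al, Rpl39l, Rpl3l, Rpl7l1, Rps23rg1, Rps27l, Rps27rt and Rps4l) and Rps19bp1, which encodes a binding partner of Rps19.

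Neurons were cut by laser capture from Nissl-stained hippocampus of male mice at about 6 months of age (MO). Ts65Dn mice (Ts) carry a small extra chromosome with the distal part of chromosome 16 and a centromeric part of chromosome 17, and model Down syndrome. Disomic littermates (2N) were the controls. Dams received a choline normal diet (ChN, 1.1 g/kg choline chloride) or a choline supplemented diet (ChP, 5.0 g/kg) through pregnancy and lactation, and all offspring ate the control diet after weaning. In CA1 PNs there were 6 2N ChN, 5 Ts ChN, 7 2N ChP and 9 Ts ChP libraries. In CA3 PNs the numbers were 6, 6, 7 and 7, and in DGCs 6, 6, 7 and 9, in the same order. The 81 libraries came from 28 mice, and each library of a group came from a different mouse. No member lies on the triplicated segments. Of the 3 members on chromosome 16, 0 lie between Mrpl39 and Zbtb21, and of the 8 on chromosome 17, 0 lie proximal to Pde10a.

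Ribosomes are built from a small subunit, which reads the mRNA, and a large subunit, which joins the amino acids. Each ribosomal protein is needed in about equal number, and most of their mRNAs begin with a run of pyrimidines (the TOP motif) through which growth signals such as mTORC1 control their translation together. In neurons ribosomes work in the cell body and in dendrites, where local protein synthesis serves synaptic plasticity.

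Library totals ran from 358355 to 4744036 counts. The standard members had a median of 44 counts per library, so that differences in single genes rest on few reads. Counts were estimated by software that shares reads among similar sequences, and 16.5% of the members' values were not whole numbers, against 0.784% of all values. The second share includes genes without a count, whose values are whole. On average 15851 of the 57010 gene identifiers had a count in a library. In 16 members more than 50% of values were not whole, and the counts of these 16 are uncertain in that respect. They included Rps3, Rpl10, Rps2, Rpl5, Rpsa, Rpl30, Rpl4, Rpl13a, Rpl12, Rps12, Rpl32 and Rpl36al. Genes with such symbols that were left out as pseudogenes or as not protein-coding numbered 313. Together with symbols that add a suffix to Rpsa, Rplp0, Rplp1 or Rplp2 they held at most 0.00928% of a library. Pseudogenes under other symbols were not counted.

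Several libraries stood apart. The CA3 library of mouse 15-145 was labelled Ts, but the mouse's other libraries were labelled 2N, and it was used as 2N. Values with its own label are given below for the CA3 comparisons in which calls changed most, and the other CA3 values hold it as 2N. The 2N ChN CA1 library of mouse 17-21 had a mean of 3.12 (log2 CPM, counts scaled by library size) over 6 CA1 markers, where the median of the CA1 libraries was 7.55, and 7.91 over the CA2 markers. The Ts ChP library of mouse 16-272 and the 2N ChP library of mouse 15-336 had CA1 marker means of 2.76 and 4.78. The 2N CA1 library of mouse 17-154 had triplicated genes at the level of Ts mice. Mitochondrial genes held 12.2% of the counts of the Ts ChP CA1 library of mouse 15-199 and 10.1% of the 2N ChP CA1 library of mouse 16-90, where the median over all libraries was 6.83%. Without either one the count of called members in Ts ChP versus 2N ChP CA1 PNs was 1 and 2. For diet in Ts CA1 PNs it was 10 and 12. The shares of all genes called in these fits are not given. The Ts ChP CA3 library of mouse 15-140 had a mean of 4.42 over the dentate granule cell markers, against a CA3 median of 1.99. Without it the count in CA3 PNs was 5 for Ts versus 2N under ChP and 6 for genotype by diet. For diet it was 7 in Ts and 8 in 2N, all again given without the shares of all genes. No label names a batch. The first part of the mouse names, which the labels do not explain, was spread unevenly over the groups. It was 16 or 17 in all Ts ChN mice and 15 or 17 in all 2N ChN mice. In ChP mice it was 14, 15 or 16, save for mouse 17-03. Its part in the genotype and diet comparisons was not tested.

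Promoter sequences show what the members share apart from their symbols. RefSeq (GRCm38.p6) windows from 250 bases before to 50 after the annotated start were matched for 67 of the 90 members. The hexamer CGGAAG, the core bound by ETS factors, stood on either strand in 44 of the 67 (65.7%). It stood in 18.8% of 27025 genes with a window and in 33.1% of the 10662 protein-coding genes tested. A run of at least 8 C or T that came within 10 bases of the start on either side was found in 30 members (44.8%), against 16.1% and 17.5%. It was sought as a stand-in for the TOP motif. The run can lie wholly before the annotated start, as in Rpl4 below, so these are not counts of TOP mRNAs. Both motifs were chosen after the windows had been read, and a match is a description. The windows below are those of 5 of the members named in the later comparisons. They run from 80 bases before the start to 19 after it, so that the start is base 81, and capitals mark CGGAAG or its complement and the pyrimidine run.
Rpl13a (chr7:45128726-45128825, minus strand): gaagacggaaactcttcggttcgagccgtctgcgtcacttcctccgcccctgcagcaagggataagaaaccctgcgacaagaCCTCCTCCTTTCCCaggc
Rpsa (chr9:120127686-120127785, plus strand): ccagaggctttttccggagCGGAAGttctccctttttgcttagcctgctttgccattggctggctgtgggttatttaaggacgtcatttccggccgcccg
Rps6 (chr4:86857348-86857447, minus strand): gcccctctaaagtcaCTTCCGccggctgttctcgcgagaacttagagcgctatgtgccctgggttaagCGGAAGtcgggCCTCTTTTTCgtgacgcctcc
Rpl4 (chr9:64173307-64173406, plus strand): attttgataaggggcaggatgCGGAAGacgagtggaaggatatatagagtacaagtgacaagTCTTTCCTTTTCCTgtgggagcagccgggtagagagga
Rpl12 (chr2:32961632-32961731, plus strand): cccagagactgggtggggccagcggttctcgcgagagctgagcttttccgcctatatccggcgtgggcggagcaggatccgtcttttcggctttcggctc
Rps6 and Rpl4 carried both motifs in this stretch, Rpsa the hexamer and Rpl13a the pyrimidine run. Rpl12 carried neither under these definitions. Rps23 and Rps19, whose windows were read as well and are not shown, also carried neither in this stretch.

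Levels between genes were compared in the deposited TPM values, which account for transcript length. The median over the members of their median TPM was 57.9, and 65.2 over the standard members, whereas the protein-coding genes with a median above 0 had a median of 10.8. Rpl13a, which can also leave the ribosome to repress inflammatory mRNAs, was the highest at 433 TPM over all libraries, with medians of 511 in DGCs, 393 in CA1 PNs and 347 in CA3 PNs. High as well were Rplp1 at 264, Rpl4, which lines the exit tunnel for the new protein, at 193, and Rps24 at 188. The ranges of Rplp1 and Rpl4 over libraries, 76.6 to 670 and 60.9 to 372, overlapped. Rplp0, Rplp1 and Rplp2 form the stalk that recruits elongation factors. Their medians were 41.3, 264 and 158 TPM. Rpsa, a small subunit protein also known as a laminin receptor, stood at 173, and Rps27a, made as a fusion with ubiquitin, at 44.7.

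The related genes were mostly low. Rpl10l had no count in any library, and Rpl27rt, Rpl3l, Rpl39l, Rpl35rt, Rps23rg1 and Rps27rt had a median of 0 TPM. Next from the bottom came Rps27l at 4.28 TPM and Rpl39, a standard member, at 6.18. Rpl36al, at 39.6 TPM, was the related gene closest to its standard partner Rpl36a at 49.4. Of the Rpl36al counts 85.2% were not whole, so that its level is uncertain. Rpl22l1 stood at 26.3 beside Rpl22 at 90.5, Rpl7l1 at 12.4 beside Rpl7 at 95.7, and Rps4l at 8.93 beside Rps4x at 42.4. Rpl3, which sits near the site of peptide bond formation, stood at 121 TPM beside Rpl3l at 0. A count was found in every library for 77 members, among them 73 of the standard genes.

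**Figure D1:**
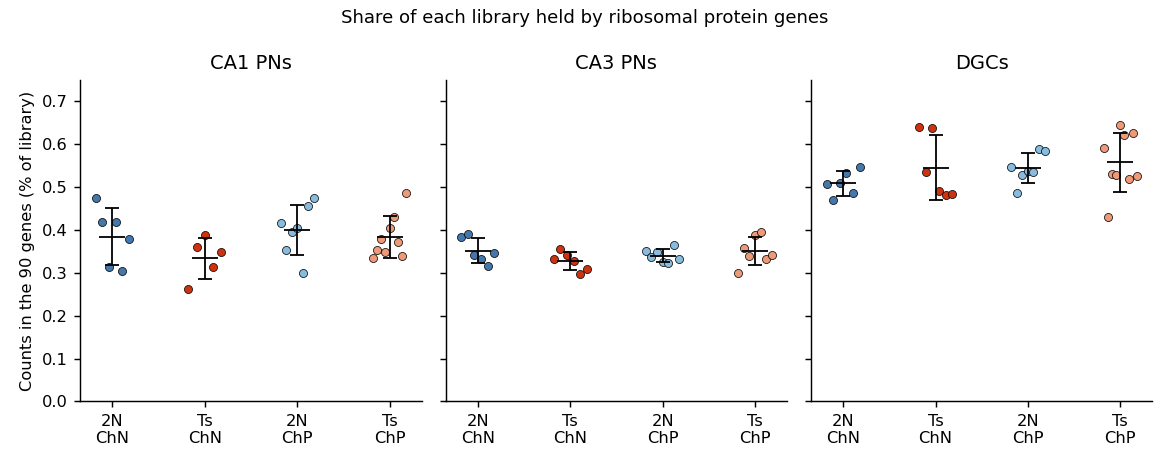
Percent of each library's counts held by the 90 ribosomal protein genes (vertical axis) in 2N and Ts mice under ChN and ChP, for CA1 PNs, CA3 PNs and DGCs; points are libraries and bars give the mean ± SD. DGC libraries lie between 0.43% and 0.65%, and the CA1 and CA3 libraries between 0.26% and 0.49%.

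The members held a small share of each library, which was made from total RNA. In CA1 PNs the share was 0.384% ± 0.066 (SD, n = 6) in 2N ChN, 0.334% ± 0.048 (n = 5) in Ts ChN, 0.400% ± 0.059 (n = 7) in 2N ChP and 0.383% ± 0.049 (n = 9) in Ts ChP. In CA3 PNs the means lay between 0.326% ± 0.021 (Ts ChN, n = 6) and 0.352% ± 0.029 (2N ChN, n = 6), where the library of mouse 15-145 stood at 0.383%. In DGCs they lay between 0.509% ± 0.029 (2N ChN, n = 6) and 0.558% ± 0.069 (Ts ChP, n = 9). The lowest DGC library, at 0.431%, was above the highest CA3 library, at 0.396%, while the CA1 libraries reached 0.485%, as the plot of shares of counts by group shows. By TPM, which is not plotted, the order of CA1 and CA3 PNs turned: the members held 0.554% ± 0.12 (n = 27) of the TPM of CA1 libraries, 0.723% ± 0.182 (n = 26) of CA3 and 0.876% ± 0.153 (n = 28) of DGC libraries. On that scale the DGC libraries, from 0.376% upwards, overlapped with the CA1 and CA3 libraries, which reached 0.756% and 1.12%. In laser-captured tissue fewer cells of a type and less RNA per cell cannot be told apart.

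The first comparison asked what trisomy does to the members in offspring of dams on the normal diet. In CA1 PNs, Ts mice had 10 of 83 tested members lower and 0 higher at an unadjusted p below 0.05, the threshold used for differentially expressed genes (DEGs) throughout the genotype and diet comparisons. Of all 12286 genes tested, 1.99% were lower and 1.78% higher, 3.77% in all. The median log2 fold change (LFC) of the members was -0.22, against -0.01 over all genes, and 65 of the 83 lay below 0. The lower DEGs were 7 of 49 large subunit and 3 of 34 small subunit members. No member passed an adjusted p below 0.05 in edgeR (smallest 0.9996), and no group separated from the other without overlap in any member, which 0.423% of all genes did. DESeq2 called 8 members and limma-voom 10 at the unadjusted threshold, counts given without those methods' shares of all genes. Other settings, listed in the last section, moved the count further.

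Rpl13a had the smallest unadjusted p. It stood at 99.6, 118, 150.4, 157 and 163 CPM in the 5 Ts ChN CA1 libraries, and at 155, 171.5 and 217 (lowest, median and highest) in 2N ChN. The 3 lowest values belonged to Ts mice, and the ranges overlapped above them. The LFC was -0.42 ± 0.14 (SE). Rpl13 stood at 32.2, 36.2, 37.0, 39.4 and 50.5 CPM in Ts, and at 42.3, 54.3 and 59.4 in 2N (LFC -0.46 ± 0.16). All Ts values but that of mouse 17-173 lay below the lowest 2N value. Rpl13a and Rpl13 stayed past the threshold in each of 20 alternatives.

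Rpsa stood at 80.5, 84.1, 100.1, 100.3 and 123 CPM in Ts CA1 PNs and at 95.9, 121 and 165 in 2N (LFC -0.40 ± 0.15). The groups overlapped, with the lowest 2N value in mouse 17-21. Rps6, the protein that S6 kinases phosphorylate downstream of mTORC1, stood at 14.1, 20.0, 24.3, 24.5 and 30.1 in Ts and at 20.3, 29.6 and 50.04 in 2N (LFC -0.54 ± 0.24). Rpl14 was also lower, at 33.2, 35.5, 37.0, 41.8 and 43.5 in Ts and at 39.1, 48.2 and 61.4 in 2N (LFC -0.39 ± 0.16). Rpl12 sits at the base of the stalk. It stood at 30.9, 32.2, 47.0, 52.2 and 63.3 in Ts and at 35.4, 65.5 and 80.02 in 2N, with broad overlap. Its LFC was -0.46 ± 0.22, and it stayed past the threshold in 6 of 20 alternatives.

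None of the stalk genes was called. In CA1 PNs of Ts ChN mice Rplp1 and Rplp2 had LFCs of -0.43 ± 0.21 and -0.34 ± 0.17, and Rplp0 of 0.08 ± 0.18. Their p lay above the unadjusted threshold. Rps27a gave -0.16 ± 0.24. Among related genes, Rpl22l1 stood at 0.09 ± 0.27 beside Rpl22 at -0.14 ± 0.21, Rpl36al at 0.03 ± 0.25 beside Rpl36a at -0.12 ± 0.34, and Rps4l at 0.53 ± 0.45 beside Rps4x at -0.24 ± 0.23, all with p above the threshold.

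The CA1 count depended on single libraries. It was 20 without the 2N library of mouse 17-21, 14 without that of 17-154 and 23 of 82 without both, all lower, with a median LFC of -0.33 in the last case. In the same 3 fits 3.08%, 1.87% and 3.3% of all genes were lower (5.31%, 3.61% and 6.28% were called in all). The count was 3 without Ts mouse 17-157, which gave the lowest value of Rpl13a, Rpsa and Rps6, and 5 without 2N mouse 15-147 or 17-172, or when library totals replaced TMM scaling. Without 2N mouse 15-145 it was 6. In these 5 fits 2.84%, 3.88%, 3.89%, 3.65% and 3.69% of all genes were called. Over all settings that left out 1 library the median LFC stayed between -0.27 and -0.15. CA1 markers had group means of 6.88 ± 1.86 (2N) and 7.39 ± 0.54 (Ts), with 0 of 6 called. CA2 markers ran from 1.81 to 7.91 in 2N and from 2.20 to 7.24 in Ts, and 0 of the 3 tested were called. Of 4 microglia markers tested 1 was higher in Ts, Cx3cr1 (LFC 1.12 ± 0.47), and the mean over that list ran from 2.03 to 2.75 in 2N and from 2.43 to 2.73 in Ts. The part of these differences in the members' LFCs was not tested.

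**Figure D2:**
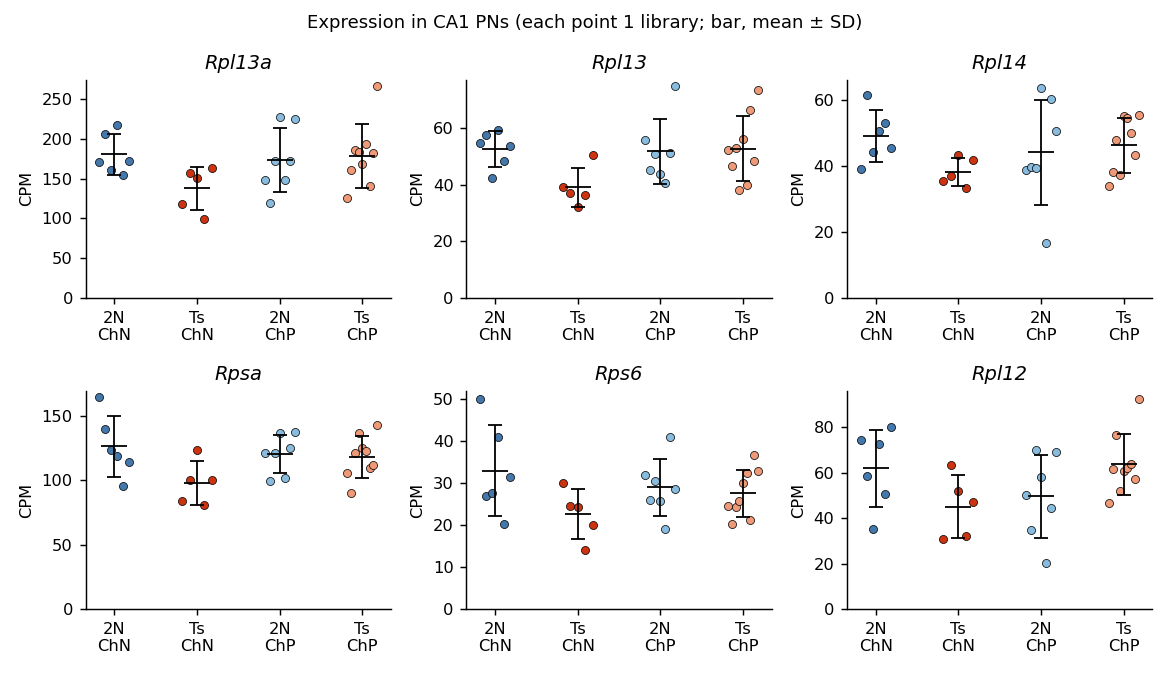
CPM (vertical axes, from 0) of Rpl13a, Rpl13, Rpl14, Rpsa, Rps6 and Rpl12 in CA1 PNs by genotype and diet; points are libraries and bars give the mean ± SD. Ts ChN means lie below the other groups in each gene, with Rpl13a at 137.6 ± 27.4 CPM (n = 5) against 180.2 ± 25.3 (n = 6) in 2N ChN, and individual values overlap.

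In CA3 PNs of ChN offspring, 9 of 82 members were lower and 2 higher in Ts mice. Of 13451 genes tested, 4.3% were lower and 4.9% higher, 9.2% in all, so that the members' share of 13.4% was closer to the background than in CA1 PNs. The median LFC was -0.13, against 0.00 for all genes, and 65 of 82 members lay below 0. The smallest adjusted p in edgeR was 0.344. Large subunit members gave 6 lower of 49, and small subunit members 3 lower and 2 higher of 33.

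Rpl30 was at 17.8, 23.5 and 28.2 CPM (lowest, median and highest of 6) in Ts CA3 PNs and at 25.4, 31.1 and 34.8 in 2N (LFC -0.40 ± 0.16, adjusted p = 0.353). Rpsa was at 94.0, 103 and 118 in Ts and at 102, 124 and 139 in 2N (LFC -0.25 ± 0.10, adjusted p = 0.353). In both the groups overlapped in part. Rps23, which lies at the decoding centre of the small subunit, was lower as well (LFC -0.38 ± 0.15, adjusted p = 0.353), as were Rpl23 (-0.37 ± 0.16, adjusted p = 0.422) and Rpl35a (-0.49 ± 0.22, adjusted p = 0.47).

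Both CA3 members that rose belong to the small subunit. Rps6 was at 24.9, 31.7 and 44.2 CPM in Ts and at 23.2, 25.7 and 29.5 in 2N (LFC 0.38 ± 0.15, adjusted p = 0.367), the reverse of its order in CA1 PNs. Rps19 was at 20.3, 26.9 and 31.4 in Ts and at 14.7, 17.8 and 28.5 in 2N (LFC 0.40 ± 0.18, adjusted p = 0.469). With the library of mouse 15-145 counted as Ts, as labelled, 1 of 82 members was called (lower), where 6.48% of all genes were, the median LFC was -0.04, and Rpl13a, at -0.22 before, stood at 0.02. None of the 11 members called before then passed the threshold, and Rpl30 stood at -0.32, Rpsa at -0.12, Rps23 at -0.12, Rpl23 at -0.31, Rpl35a at -0.21, Rps6 at 0.32 and Rps19 at 0.22. Without that library 6 of 82 members were called, where 8.54% of all genes were, and the median was -0.08. Without 2N mouse 17-21 17 were called, where 9.16% of all genes were.

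Markers of other cells moved in the same comparison. In CA3 PNs 5 of 7 inhibitory neuron markers were lower in Ts, with a median LFC of -0.69. Their group mean ran from 3.59 to 5.09 (log2 CPM) in 2N and from 3.66 to 4.01 in Ts, and Sst and Gad1 had LFCs of -1.87 ± 0.40 and -0.43 ± 0.13. Of 6 astrocyte markers 3 were lower, and their mean ran from 4.68 to 5.39 in 2N and from 4.70 to 5.16 in Ts. The CA3 markers themselves gave means of 5.87 ± 0.18 and 5.78 ± 0.15. Their part in the members' LFCs was not tested.

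**Figure D3:**
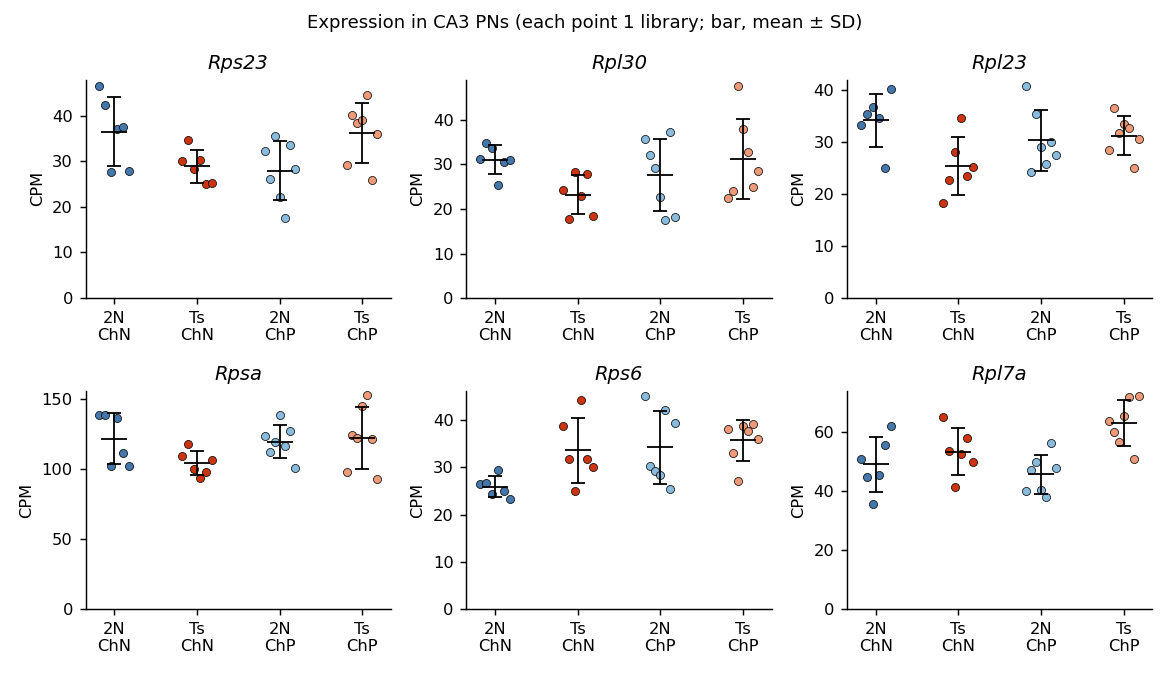
CPM (vertical axes, from 0) of Rps23, Rpl30, Rpl23, Rpsa, Rps6 and Rpl7a in CA3 PNs by genotype and diet, with the library of mouse 15-145 among 2N ChN; points are libraries and bars give the mean ± SD. Under ChN the Ts mean of Rps23 lies below 2N (28.9 ± 3.58 against 36.5 ± 7.54 CPM), and under ChP above it (36.2 ± 6.52 against 27.9 ± 6.47).

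In DGCs under ChN, 8 of 83 members were higher and 1 lower in Ts mice, where 4.55% of 13442 genes were higher and 3.96% lower. The members' share of 10.8% in all was close to the background of 8.5%. The median LFC was 0.10, against 0.00 over all genes, and 58 members lay above 0. The smallest adjusted p was 0.271 in edgeR. DESeq2 called 5 members at the unadjusted threshold, a count given without its share of all genes. Rpl3 was at 196, 207 and 252 CPM in Ts and at 158, 186 and 201 in 2N (LFC 0.26 ± 0.09, adjusted p = 0.271). The 2 lower Ts values lay within the upper range of 2N. Rps20 was at 45.9, 50.4 and 59.03 in Ts and at 31.4, 42.0 and 47.3 in 2N (LFC 0.35 ± 0.14, adjusted p = 0.47). Both overlapped between the groups.

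Rpl5, which carries the 5S rRNA into the ribosome, gave the widest spread in DGCs. It was at 118, 156 and 344 CPM in Ts ChN and at 105, 119 and 148 in 2N ChN (LFC 0.70 ± 0.29, adjusted p = 0.549). The high values were those of 2 mice, 16-357 at 292 and 17-153 at 344. In Ts ChP it ran from 72.8 to 282. Not whole were 96.3% of its counts. Rps29 (0.65 ± 0.25, adjusted p = 0.404) and Rpl36a (0.49 ± 0.22, adjusted p = 0.528) were higher too, and Rps16 lower (-0.44 ± 0.22, adjusted p = 0.577). The count of called members fell to 3 without Ts mouse 16-490, to 5 without 17-153, to 4 without 2N mouse 17-172 and to 6 without Ts mouse 16-357, where 7.95%, 8.21%, 8.49% and 8.19% of all genes were called. Dentate granule cell markers had means of 8.21 ± 0.13 in 2N and 8.23 ± 0.11 in Ts, with 1 of 6 higher and 1 lower. Of 6 excitatory neuron markers 3 were lower, of 6 CA2 markers 2 were higher and of 6 astrocyte markers 1 was higher. Their part was not tested.

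The difference between populations was tested directly in the ChN offspring. Counts of lower and higher in this paragraph are calls at an unadjusted p below 0.05 in edgeR. The change from 2N to Ts was called lower in CA1 PNs than in DGCs in 19 of 85 members and higher in 1. Of 17853 genes 3.21% were lower and 2.3% higher (5.51% in all). By sign alone, 65 of the 85 members lay below 0 and 20 above. The members' median difference was -0.31 (log2), against -0.02. The same difference between CA3 PNs and DGCs was lower in 9 of 85 and higher in 0, against 3.16% and 2.02% of all genes (5.18% in all), with a median of -0.22 against -0.03. Between CA1 and CA3 PNs it was lower in 2 (Rps6 and Rps19) and higher in 0, against 1.95% and 2.27% (4.22% in all), with a median of -0.03 against 0.01. These comparisons share libraries, and none of the members passed an adjusted p below 0.05 in edgeR, where the smallest were 0.728, 0.664 and 0.896.

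The difference for Rps6 between CA1 and CA3 PNs was -0.88 ± 0.25 (adjusted p = 0.896), and for Rps19 -0.63 ± 0.26. Between CA1 PNs and DGCs Rps20 (-0.67 ± 0.22, adjusted p = 0.731) was among the leading members. Between CA3 PNs and DGCs the leading members included Rpl30 (-0.68 ± 0.25, adjusted p = 0.796) and Rps20 (-0.54 ± 0.21, adjusted p = 0.901). The member that was higher, Rpl27rt, had a median of 0 TPM, and its fitted value of 4.21 rests on few counts, since 63 of the 81 libraries had 0. With the CA3 library of mouse 15-145 as Ts, 7 members passed between CA1 and CA3 PNs, where 4.72% of all genes did. Without the CA1 libraries of mice 17-21 and 17-154, chosen after seeing the data, the counts were 8, 31 (30 lower) and 13 in place of 2, 20 and 9. The shares of all genes called rose as well in those fits, to 6.06%, 6.53% and 5.83%.

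**Figure D4:**
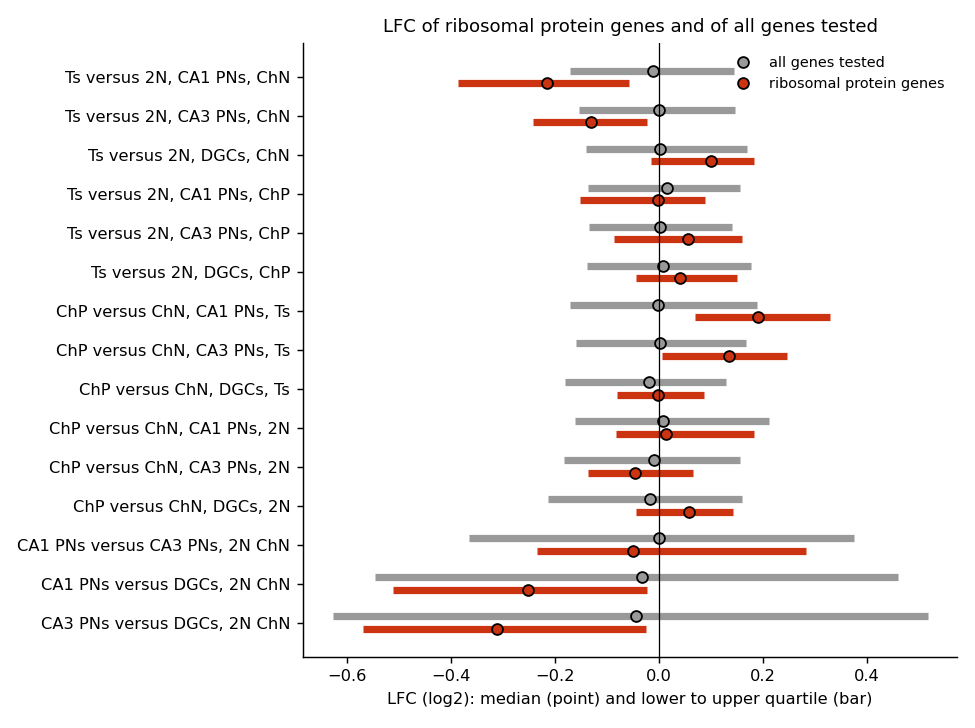
Median LFC (point) and lower to upper quartile (bar) of the ribosomal protein genes and of all genes tested, on a log2 axis, for each genotype and diet comparison. Under ChN the members' median lies at 0.10 in DGCs, -0.22 in CA1 PNs and -0.13 in CA3 PNs for Ts versus 2N, and in Ts mice ChP lies above ChN by 0.19 in CA1 PNs and 0.13 in CA3 PNs.

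Genotype was also compared among offspring of choline supplemented dams. In CA1 PNs 0 of 83 were higher and 1 lower, Rps2 (LFC -0.39 ± 0.13), against 2.14% and 1.46% of 14300 genes (3.6% in all), with a median of 0.00. Rps2, at the mRNA entry of the small subunit, was at 26.8, 37.9 and 52.3 CPM in the 9 Ts libraries and at 42.2, 55.6 and 59.3 in the 7 2N libraries. In CA3 PNs 4 of 83 were higher and 2 lower, against 2.67% and 2.32% of 14041 (4.99% in all), with a median of 0.06. The count of 6 in CA3 PNs was 3 without 2N mouse 14-125 or without Ts mouse 15-36, where 5.33% and 4.9% of all genes were called. In DGCs 2 of 83 were higher, Rpl30 (0.29 ± 0.14, adjusted p = 0.584) and Rpl41 (0.29 ± 0.14, adjusted p = 0.63), and 1 lower, Rps15a (-0.30 ± 0.13, adjusted p = 0.518), against 3.95% and 3.65% of 14162 (7.6% in all). These counts rest on different mice from the ChN comparison, and the difference between diets is the genotype by diet term below.

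Rpl7a in CA3 PNs had the smallest unadjusted p of any member in a genotype comparison. It was at 50.8, 63.6 and 71.9 CPM in Ts ChP and at 38.0, 47.2 and 56.3 in 2N ChP, with 1 Ts library inside the 2N range (LFC 0.45 ± 0.12, edgeR adjusted p = 0.149). It stayed past the unadjusted threshold in 22 of 22 alternatives. Under ChN it was at 41.3, 52.9 and 64.8 in Ts and at 35.5, 48.1 and 61.9 in 2N, and was not called. Rps23 (0.34 ± 0.16, adjusted p = 0.965) and Rps21 (0.41 ± 0.19, adjusted p = 0.972) were higher in Ts ChP as well. Rps9 (-0.30 ± 0.14, adjusted p = 0.951) was lower.

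Maternal diet was compared within each genotype. In CA1 PNs of Ts mice, 12 of 84 members were higher under ChP than under ChN and 0 lower, where 1.71% of 16225 genes were higher and 1.34% lower (3.05% in all). The median LFC was 0.19, against 0.00, and 71 members lay above 0. Of the 12, 10 belong to the large subunit and 2, Rps25 and Rpsa, to the small. In CA1 PNs of 2N mice 1 of 84 was higher, Rps27 (0.72 ± 0.29), and 0 lower, against 1.69% and 1.58% (3.27% in all), with a median of 0.01. Under edgeR no member passed an adjusted p below 0.05 in either (smallest 0.9997 and 0.9998). Under DESeq2 12 passed the unadjusted threshold in Ts mice. The share of all genes under DESeq2 is not given, and the 3.05% is that of edgeR.

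Rpl36 was at 7.17, 9.26, 10.1, 10.4 and 17.4 CPM in Ts ChN CA1 PNs and at 10.3, 18.1 and 29.2 in Ts ChP (LFC 0.76 ± 0.26). Of the 5 Ts ChN values 3 lay below the lowest of Ts ChP. Rpl13, given above for Ts ChN, was at 38.0, 52.4 and 73.4 in Ts ChP (0.44 ± 0.16), and Rpl29 rose by 0.72 ± 0.27. Rpl12 was at 46.9, 61.6 and 92.2 in Ts ChP (0.48 ± 0.22), Rplp2 at 55.0, 69.4 and 73.5 (0.34 ± 0.15) and Rpsa at 90.3, 121 and 143 (0.28 ± 0.13). Rplp1 (0.36 ± 0.20) and Rplp0 (0.12 ± 0.16) were not called. The same Ts ChN libraries enter this comparison and that with 2N ChN, so that the 2 are not independent. The count was 5 without mouse 16-357 (4.72% of all genes), 6 without 17-157 (2.56%) and 6 with library totals (3.05%), and 8 without Ts ChP mouse 17-03 (3.07%). It was 14 without mouse 16-272, the library with the lowest CA1 markers (2.45%). CA2 markers ran from 2.20 to 7.24 in Ts ChN and from 1.77 to 7.41 in Ts ChP, and 0 of 7 were called. Of 4 CA3 markers tested and of 6 vascular markers, 1 each was higher. Their part was not tested.

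In CA3 PNs of Ts mice 9 of 85 members were higher under ChP and 0 lower, against 2.24% and 1.96% of 16721 genes (4.19% in all), with a median of 0.13. Rpl37a was at 2.23, 6.33 and 8.91 CPM in Ts ChN and at 3.29, 12.5 and 15.9 in Ts ChP (LFC 1.03 ± 0.33), at few counts. Rpl11, the partner of Rpl5 in the 5S particle, rose by 0.52 ± 0.19, and Rpsa by 0.25 ± 0.10, from 94.0, 103 and 118 to 93.04, 122 and 153 CPM. With the library of mouse 15-145 as Ts the count was 4 (3.54% of all genes), and it was 3 without Ts ChP mouse 15-245 (3.68%) and 5 without Ts ChN mouse 17-192 (3.55%). Of 6 astrocyte markers 2 were higher, of 7 inhibitory neuron markers 1, Sst, and of 5 dentate granule cell markers 1. Their part was not tested. The smallest adjusted p of a member in edgeR was 0.9988.

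In 2N CA3 PNs the members moved both ways, with 3 of 85 higher and 5 lower, against 2.07% and 2.83% (4.9% in all) and a median of -0.05. With the library of mouse 15-145 as Ts the count was 7, and Rps23 and Rps19 no longer passed. The share of all genes in that fit is not given. Rps21 (-0.60 ± 0.18, adjusted p = 0.74) and Rps23 (-0.39 ± 0.15, adjusted p = 0.946) fell, and Rps6 (0.38 ± 0.15, adjusted p = 0.946), Rpl17 (0.33 ± 0.15) and Rps19 (0.42 ± 0.19) rose. In DGCs 0 of 84 were higher and 2 lower in Ts mice, Rpl17 (-0.37 ± 0.15) and Rpl31 (-0.34 ± 0.17), against 1.45% and 2.36% of 16537 (3.81% in all). In 2N DGCs 1 was higher, Rps15a (0.48 ± 0.22, adjusted p = 0.853), and 0 lower, against 2.47% and 3.36% (5.82% in all). The medians were 0.00 and 0.06, and the smallest adjusted p in edgeR 0.9986 and 0.853. The counts in DGCs were below the background share.

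The genotype by diet term tests whether the effect of trisomy differed between diets. In CA1 PNs the term lay above 0 in 58 of 84 members and below in 26, with a median of 0.15. Past the unadjusted threshold were 3 members above 0 and 0 below, against 1.7% and 1.52% of all genes (3.22% in all). They included Rpl12 (0.80 ± 0.32) and Rpl37 (0.64 ± 0.29). Rpl12 passed in 33 of 33 alternatives. Under ChP it was at 46.9, 61.6 and 92.2 CPM in Ts and at 20.3, 50.1 and 69.9 in 2N, whereas under ChN the Ts median was the lower one. Without both mice 17-21 and 17-154 the count was 13, and without 17-21 alone it was 12, where 3.65% and 3.75% of all genes were called. It was 11 without 2N ChP mouse 16-90 (3.48% of all genes), 2 without Ts ChN mouse 17-157 (2.81%) and at least 4 without any other single mouse.

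In CA3 PNs the term lay above 0 in 68 of 85 members and below in 17, with a median of 0.20. Past the unadjusted threshold were 8 members above 0 and 0 below, against 2.73% and 2.14% (4.87% in all). They included Rps23 (0.72 ± 0.22) and Rpl30 (0.56 ± 0.24). Rps23 was at 25.1, 29.1 and 34.6 CPM in Ts ChN, at 27.7, 37.3 and 46.4 in 2N ChN, at 25.9, 38.5 and 44.5 in Ts ChP and at 17.6, 28.4 and 35.5 in 2N ChP. By the medians its order was 2N above Ts under ChN and Ts above 2N under ChP. With the library of mouse 15-145 as Ts 4 members passed, where 4.19% of all genes did, Rps23 among them (0.45) but not Rpl30 (0.47). The count was 14 with no filter on low counts (5.99% of all genes), 16 without 2N ChP mouse 16-273 (5.35%), 5 without the library of 15-145 (4.5%) and 4 without Ts ChN mouse 17-173 (4.79%). In DGCs 1 of 84 passed, Rpl37 (-0.54 ± 0.23), against 2.06% above and 1.9% below 0 (3.97% in all), with a median of -0.05. The smallest adjusted p in the 3 populations were 0.9999, 0.983 and 0.9997 in edgeR.

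**Figure D5:**
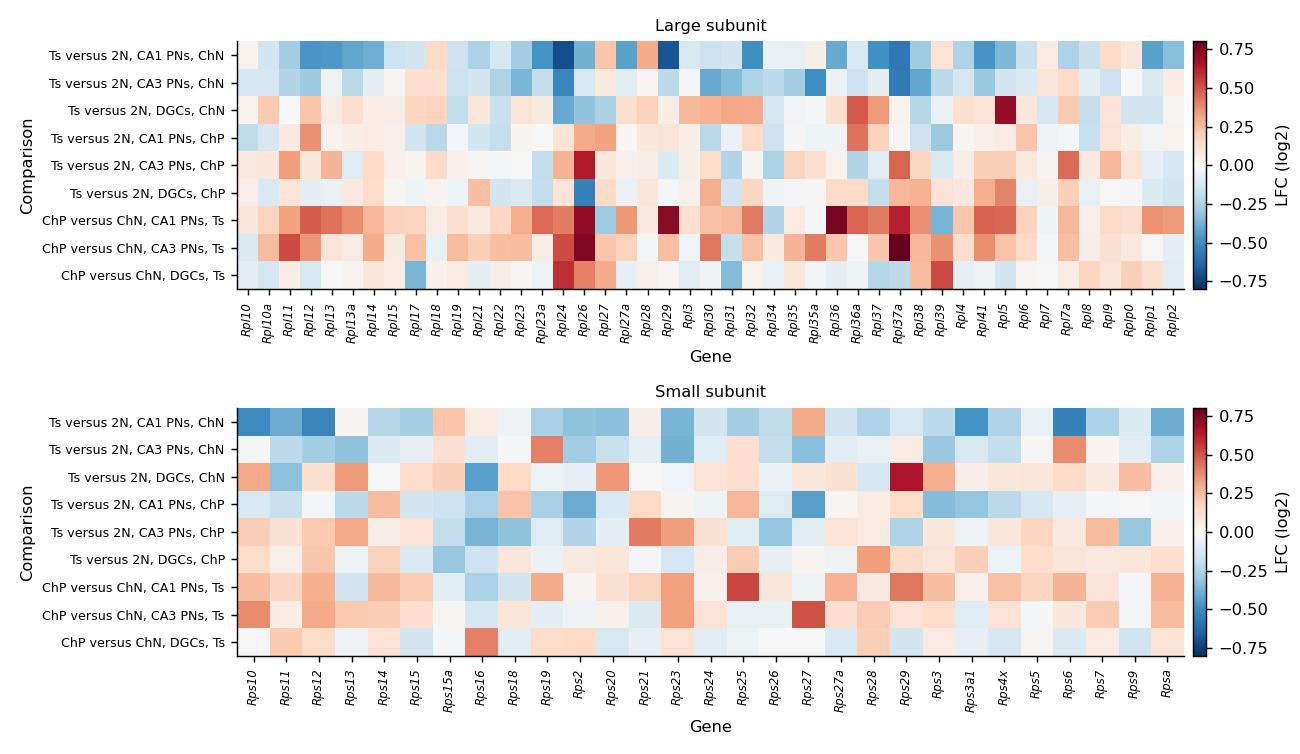
LFC (colour, log2, limited to 0.8 in either direction) of 74 of the 77 standard members (horizontal axis) in Ts versus 2N under ChN and ChP and in ChP versus ChN in Ts mice (vertical axis), by subunit. The Ts versus 2N rows under ChN are mainly blue in CA1 and CA3 PNs, where 60 and 58 of the 74 lie below 0, and the DGC row is mainly red, where 50 lie above 0.

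The populations were compared in the 2N ChN libraries at an adjusted p below 0.05 (edgeR, Benjamini-Hochberg over all genes). CA1 PNs against DGCs gave 21 of 83 members lower and 0 higher, where 16.7% of 14973 genes were lower and 17.7% higher (34.3% in all), with a median LFC of -0.25 against -0.03. CA3 PNs against DGCs gave 23 lower and 1 higher, where 21.8% were lower and 21.9% higher (43.7% in all), with a median of -0.31 against -0.04. The members' shares of 25.3% and 28.9% were below those of all genes, and all but Rps4l of the members called were higher in DGCs. CA1 against CA3 PNs gave 5 higher and 4 lower, against 11.3% and 12% (23.3% in all), with a median of -0.05. With library totals in place of TMM, which lowered the median of all genes to -0.17 in CA1 PNs and -0.24 in CA3 PNs against DGCs, the counts were 33 and 48, all lower, where 36.1% and 45.9% of all genes were called. Relative to those shifts the members stayed lower. With the CA3 library of mouse 15-145 as Ts, 9 members differed between CA1 and CA3 PNs and 27 between CA3 PNs and DGCs, where 22.1% and 41.7% of all genes did.

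Markers of other cells also moved between the populations. In the 2N ChN libraries the mean over 6 oligodendrocyte markers (log2 CPM, TMM scaled over all libraries) ran from 4.82 to 5.32 in CA3 PNs. That was above its 3.53 to 4.61 in CA1 PNs and 3.25 to 4.07 in DGCs. The astrocyte mean ran from 4.68 to 5.39 in CA3 PNs, above the 4.17 to 4.52 of DGCs, and from 4.13 to 5.04 in CA1 PNs. Inhibitory neuron markers ran from 2.98 to 3.76 in DGCs, from 3.94 to 4.80 in CA1 PNs and from 3.59 to 5.09 in CA3 PNs, and microglia markers had means of 2.84, 2.36 and 2.57 in that order. Against DGCs, CA3 PNs had 5 of 6 oligodendrocyte, 4 of 6 astrocyte and 2 of 5 vascular markers higher and 0 lower, and 4 of 7 inhibitory neuron markers higher and 1 lower, while of 6 microglia markers 0 passed. CA1 PNs had 5 of 7 inhibitory neuron markers higher and 1 lower against DGCs, and 2 astrocyte markers each way. The part of these cells in the members' differences was not tested.

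Rpl7 was at 50.9, 76.2 and 81.4 CPM in CA1 PNs, at 73.5, 83.9 and 100.4 in CA3 PNs and at 101, 122 and 145 in DGCs. The DGC range lay above both others, and those overlapped. Its LFC against DGCs was -0.80 ± 0.13 in CA1 PNs (adjusted p = 2.4e-06) and -0.57 ± 0.12 in CA3 PNs (adjusted p = 0.00017). Rpl4 was at 216, 228 and 273 in CA1 PNs, at 211, 234 and 281 in CA3 PNs and at 297, 314 and 338 in DGCs. All DGC libraries stood above all others (LFC -0.46 ± 0.09 and -0.44 ± 0.09). Rps19 was lower in CA3 PNs than in DGCs, at 15.8, 19.1 and 30.6 against 29.8, 38.0 and 48.6 (LFC -0.89 ± 0.18, adjusted p = 8.4e-05). Rps4l, at 5.57, 8.25 and 12.5 in CA3 PNs and 1.92, 4.33 and 5.48 in DGCs, was the single member higher in CA3 PNs (LFC 1.13 ± 0.43, adjusted p = 0.0305).

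Some members set CA1 and CA3 PNs apart. Rps12 was at 30.1, 46.0 and 69.1 CPM in CA1 PNs, at 19.5, 22.6 and 28.8 in CA3 PNs and at 33.3, 45.6 and 50.3 in DGCs. The CA3 range was separate from both others (CA1 against CA3, LFC 0.95 ± 0.19, adjusted p = 0.00013). Rpl32 (1.03 ± 0.20, adjusted p = 0.00049), Rpl12 (0.66 ± 0.16), Rpl13a (0.45 ± 0.12) and Rpl7a (0.64 ± 0.17) were higher in CA1 PNs. Not whole were 72.8% of the counts of Rps12 and 70.4% of those of Rpl32, which are uncertain in that respect. Rplp0 was at 22.1, 33.8 and 39.01 in CA1 PNs, at 44.1, 51.5 and 64.1 in CA3 PNs and at 43.6, 48.7 and 64.1 in DGCs, so that CA1 PNs were lowest without overlap (LFC against CA3 -0.72 ± 0.16, adjusted p = 0.00046). Rpl22 was also lowest in CA1 PNs, overlapping with CA3 PNs (LFC -0.67 ± 0.16, adjusted p = 0.0013), at 21.1, 33.2 and 49.3 in CA1 PNs, while CA3 PNs gave 47.7, 54.6 and 64.3 and DGCs 53.1, 62.6 and 75.5.

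Other parts of the translation machinery were followed in lists of genes, to be read against the 1.99% of all genes that were lower and the 1.78% that were higher in this first comparison. In CA1 PNs of Ts ChN mice 2 of 17 elongation and release factors were lower and 0 higher, Eef1b2 (LFC -0.43 ± 0.18), the exchange factor of Eef1a, and Eef2 (-0.33 ± 0.15), which moves the ribosome along the mRNA. Of 38 initiation factors 3 were lower, led by Eif3a (-0.40 ± 0.14) and Eif5 (-0.30 ± 0.11), and 0 higher. Of 42 ribosome biogenesis genes 3 were lower, among them Ncl (-0.39 ± 0.16) and Gnl3 (-0.48 ± 0.20), and 0 higher. Of 19 other TOP mRNAs 2 were lower, again Eef1b2 and Eef2. Of 18 genes of RNA polymerase I and its factors 0 were called. Of 26 genes of the mTORC1 pathway 1 was higher, Rragd (0.62 ± 0.23), and 0 lower, and of 14 snoRNA host transcripts Snhg12 was lower (-0.85 ± 0.35). The medians of these lists lay between -0.25 and -0.03, against -0.22 for the members. Fau and Rack1, ribosomal proteins outside the symbol rule, were not called.

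The CA3 and DGC counts lie on a background of 9.2% and 8.5% of all genes called in either direction, and those in elongation, initiation and mTORC1 genes of CA3 PNs (2 of 17, 4 of 38 and 3 of 27) were near it. In CA3 PNs of Ts ChN mice 1 of 17 elongation and release factors was higher, Etf1 (0.27 ± 0.11), and 1 lower, Eef1b2 (-0.28 ± 0.13). Of 38 initiation factors 1 was higher, Eif3e (0.30 ± 0.13), and 3 lower, among them Eif3l (-0.35 ± 0.11). Rragd was again higher (0.34 ± 0.09), 1 of 27 mTORC1 genes, with 2 lower. Of 42 biogenesis genes 0 were called. In DGCs 5 of 42 biogenesis genes were higher, among them Tsr2 (0.32 ± 0.13) and Npm1 (0.26 ± 0.11), and 1 lower, Mrto4 (-0.58 ± 0.25). Eef2 was lower there as well (-0.22 ± 0.10), with Tpt1 (-0.19 ± 0.09), the 2 called of 17. Under ChP against ChN, where 2.24% of all genes were higher, in CA3 PNs of Ts mice 3 of 19 other TOP mRNAs were higher, among them Pabpc1 (0.26 ± 0.09) and Npm1 (0.24 ± 0.11), and 4 of 42 biogenesis genes, with 0 lower in both.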

How the data were processed

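Total RNA of laser-captured neurons was made into libraries with a stranded total RNA kit for low input (SMARTer Pico). Per the paper's methods the authors trimmed reads where needed with Trimmomatic (0.39), aligned them with STAR to GRCm39 and quantified genes of the Gencode annotation with RSEM. The deposited expected counts per gene, not normalized, were rounded to whole numbers and tested. The deposited TPM values, which the authors obtained per library from RSEM, served to order genes by level and were not tested. RSEM divides reads among paralogs and processed pseudogenes, which can move counts between similar members. All 81 columns of the 3 matrices equalled the libraries' own files.

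Genes above 0.1 CPM in at least 10 of the libraries fitted were kept, as in the study. Counts were scaled by TMM and tested with edgeR (4.0.16, R 4.3.3), using its robust quasi-likelihood test, two-sided, with Benjamini-Hochberg adjustment over all genes tested. CPM values are TMM scaled within a population, or over all libraries where populations are compared. Marker means are scaled over all libraries throughout, with a prior count of 2. Genotype was tested within each diet on the 2 groups compared, diet and genotype by diet on the 4 groups of a population, populations on the 3 2N ChN groups, and differences between populations on the 6 ChN groups. DEGs were taken at an unadjusted p below 0.05, the study's rule, and populations at an adjusted p below 0.05. The study's covariates (RNA concentration and read-mapping percentages) were not used here. Alternatives were DESeq2 (1.42.0), limma-voom (limma 3.58.1), 1 surrogate variable (sva 3.50.0), other scalings and filters, other groups in the fit, the label of 1 CA3 library, mouse as a block, and each library left out. The fits were tested on simulated data, the outcome of which is not given here and is not used for any result.

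The members and gene lists were chosen with earlier results of these data known. Named in the text are the members with the smallest p in each direction (up to 6 in Ts versus 2N under ChN, 5 between populations and 3 elsewhere), the 5 highest and lowest in TPM, the stalk genes, Rpsa, Rps27a, Rpl12 (which the study names), members with a related gene, and up to 2 genes of each other list in each direction. Rpl5 was given per library for its spread. Some genes that this rule names are not reported here; they remain in the counts and medians over members and lists.

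Libraries of the same mouse in different populations are paired by animal. Over 8995 genes the deviations of 78 such pairs correlated with a median r of 0.07 (-0.02 to 0.18), and those of different mice with -0.00288. No libraries of a group agreed within sampling noise (smallest chi-square per degree of freedom 1.6), so that none was counted as a duplicate.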

Additional observations from a re-analysis of the deposited data

Results flagged for a closer look

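In 60 groups of values (the members' mean log2 CPM and share of counts in each group, and the CPM of members named in Ts versus 2N under ChN), 0 held a library far from the others. Marker levels, by which several libraries stood apart, were not among these values. The following differences between diets or between populations passed the unadjusted threshold in the test of the difference itself (edgeR, p below 0.05), and none passed at an adjusted p below 0.05. For genotype by diet the CA1 PNs had 3 of 84 members past it (3.57%), near the 3.22% of all genes, among them Rpl12 (0.80 on the log2 scale) and Rpl37 (0.64). The CA3 PNs had 8 of 85 (9.41%, against 4.87%), among them Rps23 (0.72) and Rpl30 (0.56). The DGCs had 1 of 84 (1.19%, below the 3.97% of all genes), Rpl37 (-0.54).

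For the genotype effect under ChN 2 of 85 members passed between CA1 and CA3 PNs (2.35%, below the 4.22% of all genes), 20 of 85 between CA1 PNs and DGCs (23.5%, against 5.51%) and 9 of 85 between CA3 PNs and DGCs (10.6%, against 5.18%). The difference of CA1 from CA3 PNs was below 0 for Rps6 (-0.88) and Rps19 (-0.63). That of CA1 PNs from DGCs was below 0 for Rps20 (-0.67), and above 0 for Rpl27rt (4.21), which had no count in 63 of 81 libraries. That of CA3 PNs from DGCs was below 0 for Rpl30 (-0.68) and Rps20 (-0.54). Outside the comparisons, the genes with ribosomal protein symbols that were left out as pseudogenes or as not protein-coding held up to 0.00928% of a library's counts. Pseudogenes under other symbols were not counted.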

How the results depend on the processing

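Each count of called members and each median LFC was recomputed under other settings. Unless given in the Results, the share of all genes called in each of these fits is not stated. That share moved between settings, so a count alone does not show that the members changed. With no filter on low counts the counts were 16 (Ts versus 2N, CA1, ChN), 2 (CA1, ChP), 4 (ChP versus ChN, DGCs, Ts), 8, 14 and 3 (genotype by diet in CA1 PNs, CA3 PNs and DGCs). With library totals they were 5 (Ts versus 2N, CA1, ChN), 6 (ChP versus ChN, CA1, Ts), 33 (CA1 versus DGCs) and 48 (CA3 versus DGCs, median LFC -0.51). TMM without the members gave 8 in genotype by diet, CA1. DESeq2 gave 5 and 0 for Ts versus 2N in DGCs under ChN and ChP, and limma-voom 3 (CA1, ChP) and 1 (DGCs, ChP). With 1 surrogate variable the counts were 22 (CA1, ChN) and 2 (CA1, ChP). Whether all genes gained calls alongside the members in the fit with 22 is not given. Fitting only the 2 groups gave 2 for diet in 2N DGCs. With the CA3 library of mouse 15-145 as Ts the counts were 1 (Ts versus 2N, CA3, ChN), 4 (diet, CA3, Ts), 4 (genotype by diet, CA3) and 7 (difference between CA1 and CA3, median -0.18), and Rpl13a reversed to 0.022 in CA3 PNs under ChN. Without the 2N CA1 libraries of mice 17-21 and 17-154, an alternative chosen after seeing the data, they were 23 (CA1, ChN), 2 (diet, CA1, 2N), 13 (genotype by diet, CA1), 8 and 31 (differences of CA1 from CA3 and from DGCs). Causes were not tested. All other counts in these settings, 131 of 158, lay within 1.5 times the reported one, and 156 of 158 medians moved by less than 1 SD between libraries.

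The ranges of called members that follow are also given without the share of all genes in each fit. Leaving out each library gave, for Ts versus 2N, 3 to 20 (CA1, ChN), 1 to 5 (CA1, ChP), 6 to 17 (CA3, ChN), 3 to 8 (CA3, ChP), 3 to 12 (DGCs, ChN) and 1 to 5 (DGCs, ChP). For diet it gave 5 to 15 (CA1, Ts), 1 to 4 (CA1, 2N), 3 to 11 (CA3, Ts), 6 to 12 (CA3, 2N), 1 to 4 (DGCs, Ts) and 0 to 3 (DGCs, 2N). For genotype by diet it gave 2 to 12, 4 to 16 and 0 to 2 in CA1 PNs, CA3 PNs and DGCs. Between populations the range was 7 to 13 (CA1 versus CA3), 16 to 26 (CA1 versus DGCs) and 20 to 27 (CA3 versus DGCs), and for the differences between populations 2 to 5, 14 to 24 and 5 to 14. Of 170 calls on single members, 67 stayed past the threshold in every setting. With mouse as a block, libraries of the same animal are paired. The counts between populations were then 8, 23 and 29, and those for the differences 2, 20 and 10. None of these 6 counts moved by over 1.5 times, and the shares of all genes under the block are not given.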
